A study of Mus musculus with 7 samples.

Results

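Below the hyperexpanded CD8 T cell clones of a tumor lies a layer of clones that are large but do not dominate the repertoire, and 314 of the 6907 productive TCRβ rearrangements in these data belonged to it. A rearrangement is 1 distinct nucleotide sequence across the V-D-J junction, and it is productive when it is in frame and free of stop codons. A rearrangement was called large in a mouse when it made up more than 0.1% and at most 1% of the productive templates of that mouse, templates being the estimated number of rearranged gene copies. Rearrangements above 1% are called hyperexpanded here (79 rearrangements), and those at or below 0.1% are called smaller (6514 rearrangements). The members were chosen by their template frequency, so their abundance is given as a description.

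The DNA came from CD8 tumor-infiltrating lymphocytes (TILs), isolated from the tumor digest by positive selection, in wild-type C57BL/6 mice that carried A223, a transplanted mouse squamous cell carcinoma line. The mice were 6 to 8 weeks old, all 7 had anti-PD-L1, an antibody that blocks a checkpoint ligand, started at a tumor volume of 250 to 350 mm3, and they were sorted by outcome into 3 responders (R; 1R, 2R and 3R) and 4 non-responders (NR; 4NR, 5NR, 6NR and 7NR). No mouse without the antibody was analysed here. The libraries hold only TCRβ rearrangements, so the CD8 identity of the cells could not be checked against marker genes.

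A TCRβ chain is made by joining 1 of many V segments, a D and a J segment in each developing T cell. Nucleases trim the ends, and the enzyme TdT adds N bases that no segment encodes, on the V side of D (N1) and on its J side (N2). The loop that spans the joint, CDR3, is the part of the chain that touches the antigen peptide. Cells descended from 1 clone carry the same junction. A junction with few N bases stays close to the germline and can arise again in other mice.

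The most abundant large rearrangement of each mouse that was hyperexpanded in no mouse is shown first, since these sequences carry what the class looks like at its upper end. Each is 87 bases, 5′ to 3′ on the coding strand as deposited, and is named by its mouse and V gene. It ends 1 codon before the last residue of the CDR3, and the capitals mark the bases that the annotation gave to neither V nor J.
1R TCRBV12-01: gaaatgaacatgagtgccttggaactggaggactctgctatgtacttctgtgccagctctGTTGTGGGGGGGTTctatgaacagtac
2R TCRBV12-01: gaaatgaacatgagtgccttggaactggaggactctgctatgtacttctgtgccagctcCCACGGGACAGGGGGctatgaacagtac
3R TCRBV19-01: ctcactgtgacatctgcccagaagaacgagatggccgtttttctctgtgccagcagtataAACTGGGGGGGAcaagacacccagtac
4NR TCRBV01-01: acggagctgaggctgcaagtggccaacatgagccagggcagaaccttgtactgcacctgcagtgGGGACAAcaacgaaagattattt
5NR TCRBV26-01: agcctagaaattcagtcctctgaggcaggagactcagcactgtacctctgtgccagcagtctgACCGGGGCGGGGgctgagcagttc
6NR TCRBV26-01: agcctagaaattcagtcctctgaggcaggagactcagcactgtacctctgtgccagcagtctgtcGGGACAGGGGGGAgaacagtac
7NR TCRBV13-01: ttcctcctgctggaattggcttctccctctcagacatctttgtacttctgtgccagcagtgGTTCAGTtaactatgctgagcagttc
These 7 used 5 V genes. TCRBV12-01 stood in 1R and 2R, TCRBV26-01 in 5NR and 6NR, TCRBV19-01 in 3R, TCRBV01-01 in 4NR and TCRBV13-01 in 7NR. That of 2R, at 83 templates or 0.970%, was the member closest to the upper limit, and the lowest hyperexpanded rearrangement stood at 51 templates or 1.01% in 4NR. At the lower limit the nearest member had 10 templates or 0.101% in 3R, and the nearest rearrangement outside had 15 templates or 0.0988% in 7NR. As nucleotide sequences, those from 1R, 6NR and 7NR were found in no other mouse. The CDR3 residues, V and J of the 6NR sequence were, however, hyperexpanded in 3R through another nucleotide sequence, at 4.30%. This other sequence was also large in 6NR, with 12 templates. The sequence of 2R was also seen with 2 templates in 3R and 3 in 5NR, and that of 3R with 2 templates in 6NR and a single one in each of 4NR and 7NR.

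The 314 members comprised 295 distinct sequences and 265 distinct CDR3s, and they held 8315 of 66557 productive templates, 12.5%. 1R had 45 members with 13.8% of its templates (95% Wilson interval 13.3 to 14.4), 2R had 38 with 11.1% (10.5 to 11.8) and 3R had 55 with 17.4% (16.7 to 18.2). 4NR had 34 members with 7.92% (7.21 to 8.70), 5NR had 38 with 12.3% (11.8 to 13.0), 6NR had 65 with 16.6% (15.2 to 18.2) and 7NR had 39 with 9.85% (9.38 to 10.3). The intervals cover counting error only, since templates are estimated after PCR. Most members sat near the lower limit: 166 of them (52.9%) lay between 0.1% and 0.2%, 95 between 0.2% and 0.5%, and 53 above 0.5%, and the last group held 42.8% of the members' templates.

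Depth differed between the mice, from 2332 productive templates in 6NR to 15182 in 7NR. In 6NR a single template was 0.0429% of the repertoire, so 3 templates made a member, whereas the smallest member of 7NR had 17. Members had between 3 and 138 templates, 76 had fewer than 10, and for 135 of the 314 the Wilson interval reached below 0.1%, among them 40 of the 65 of 6NR. The members of 6NR were 19.5% of its productive rearrangements, against 2.77% to 3.99% in the other 3 NR mice.

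**Figure D1:**
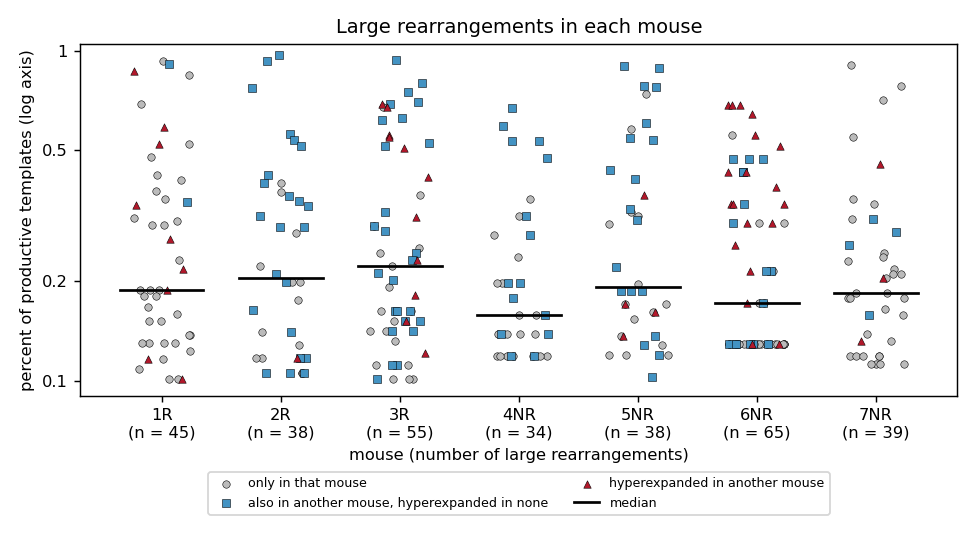
Each point is 1 large rearrangement, as a percent of the productive templates of its mouse (log axis, 0.1% to 1%); marker shape and color give whether the same sequence was found in another mouse, and the bar is the median of the mouse. The medians lie between 0.158% (4NR) and 0.223% (3R), triangles are most frequent in 6NR (19 of 65) and absent in 4NR, and the rows of points in 6NR at the bottom are whole template counts from 3 upwards.

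The size of the class overlapped between R and NR mice, and since template frequency chose the members it is given with no test. R mice had 46.0 ± 8.54 members (mean ± SD, n = 3) and NR mice 44.0 ± 14.2 (n = 4). The share of templates was 14.1% ± 3.16 in R and 11.7% ± 3.76 in NR. The median size of a member was 0.205% ± 0.0172 in R and 0.176% ± 0.0148 in NR. The difference in number rests on single mice: it was 2.00 in favor of R, -2.50 without 3R and 9 without 6NR.

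Several members were not independent between mice, and this bears on every comparison that follows. Of the 314 members, 47 (15.0%) were identical, base for base, to a hyperexpanded rearrangement of another mouse, against 1.52% of all productive rearrangements (105 of 6907) and 0.675% of the smaller ones (44 of 6514). Within the hyperexpanded class the share was 17.7% (14 of 79). The 47 members were 35 distinct sequences, of the 71 distinct hyperexpanded ones. They numbered 9, 1 and 11 in the R mice from 1R to 3R, and 0, 4, 19 and 3 in the NR mice from 4NR to 7NR. In 6NR they held 45.4% of the templates of its members, in 3R 25.2% and in 1R 23.2%, and 4NR had none.

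The shared sequences clustered in particular pairs of mice, and in several pairs far more ran one way than the other. Of the 11 hyperexpanded rearrangements of 4NR, 10 were found in 1R and 8 of these were large there, whereas 0 of the 11 hyperexpanded ones of 1R were found in 4NR. All 7 hyperexpanded rearrangements of 2R were found in 3R, 4 of them as large, and all 10 of 5NR were found in 3R, 7 of them as large. In the reverse direction, 0 of the 17 of 3R were found in 2R and 2 in 5NR. Of the 17 of 3R, 14 were found in 6NR, 9 of them as large, and 3 of the 9 of 6NR were found in 3R, where all 3 were also hyperexpanded. Sharing between 6NR and 7NR ran both ways: 7NR held 8 of the 9 that were hyperexpanded in 6NR, and 6NR held 7 of the 14 that were hyperexpanded in 7NR. The spread of frequencies within a pair varied. The 7 from 2R stood in 3R at 1.43% to 2.63% of their level in 2R, and the 10 from 4NR stood in 1R at 1.55% to 9.78% of theirs. The 14 from 3R stood in 6NR at 2.33% to 2801% of theirs, and the 9 of these that were large in 6NR at 9.52% to 30.5%. Over all 47 members the median was 5.62% of the source, from 0.613% to 57.2%, counting each pair of a member and a source. A source of the opposite outcome group existed for 35 of the 47. This count is a description only: some members had more than 1 source, and the share was not counted over all productive rearrangements. Whether cells, DNA or reads passed between samples was not tested.

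**Figure D2:**
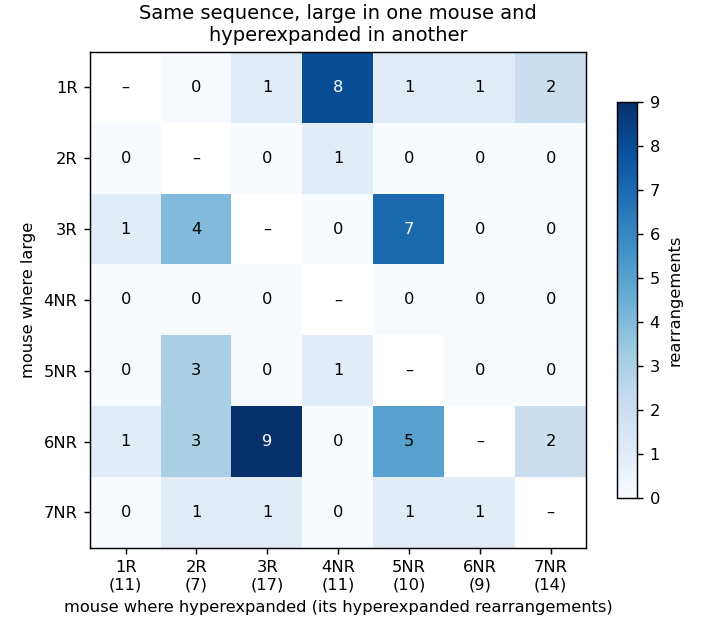
Each cell counts the rearrangements that were large in the mouse of the row and hyperexpanded, as the same nucleotide sequence, in the mouse of the column; the number in brackets is how many hyperexpanded rearrangements that mouse had. The highest counts are 9 (3R into 6NR), 8 (4NR into 1R) and 7 (5NR into 3R), and the row of 4NR holds only 0.

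The 267 members hyperexpanded in no other mouse were also often seen elsewhere at some level: 163 occurred in 1 mouse, 64 in 2, 29 in 3 and 11 in 4. With the hyperexpanded ones, 151 of 314 members (48.1%) were found in another mouse, against 9.43% of all productive rearrangements and 6.74% of the smaller ones. Of the hyperexpanded class, 61 of 79 (77.2%) were found in another mouse, so the large class stood between the other classes. A member has more templates than a smaller rearrangement, so the shares are not at equal depth. Some of the pairs named above recurred, beside others. Of the 34 members of 4NR, 15 were found in 1R, each at a lower frequency than in 4NR, with a median of 7.64% of their level in 4NR. Of the 55 members of 3R, 25 were found in 7NR, all lower, at a median of 4.65%. Of the 38 members of 2R, 19 were found in 5NR and 14 in 3R, all lower. In 6NR, 25 members of 3R were found, 24 of them lower, and in 3R, 18 members of 5NR, 17 of them lower. In some directions few were lower: 2 of the 13 members of 3R found in 5NR, and 5 of the 21 members of 6NR found in 3R.

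Only a small number of sequences were large in several mice at the same time. Of the 295 distinct sequences, 278 were large in 1 mouse, 15 in 2 and 2 in 3. The last 2 are shown with the capitals as above, because no other sequence was large in as many mice. Both were hyperexpanded in 2R, and they are named here by that mouse.
2R TCRBV16-01: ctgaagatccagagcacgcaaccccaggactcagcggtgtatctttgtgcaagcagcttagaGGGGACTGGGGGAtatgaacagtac
2R TCRBV29-01: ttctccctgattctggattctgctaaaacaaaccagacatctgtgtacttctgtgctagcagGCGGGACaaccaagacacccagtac
The first joins TCRBJ02-07, and took 33.3% of the templates of 2R, where it was hyperexpanded. As a large one it reached 0.688% of 3R, 0.686% of 6NR and 0.204% of 7NR. It was not seen in 1R, 4NR or 5NR. The other joins TCRBJ02-05, and took 21.0% of the templates of 2R. As a large one it reached 0.415% of 3R, 0.366% of 5NR and 0.686% of 6NR, and below the limit it stood at 0.0659% of 7NR.

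By residues rather than bases, sharing was wider. Among the 265 distinct CDR3s, 21 were large in 2 mice, 6 in 3 and 3 in 4. The 15-residue CDR3 of the TCRBV16-01 sequence above, which 52 distinct nucleotide sequences encoded over the 7 mice, took 24.7%, 33.5% and 3.40% of the templates of 1R to 3R, and then 17.4%, 38.1%, 54.7% and 7.51% of those of 4NR to 7NR. It held large rearrangements in 1R, 3R, 6NR and 7NR beside hyperexpanded ones in every mouse. A CDR3 of TCRBV04-01 and TCRBJ02-01 was hyperexpanded in 1R and 5NR and large in 2R, 3R and 6NR. Another, of TCRBV01-01 and TCRBJ02-07, reached 0.339% of 2R, 0.596% of 5NR and 0.343% of 7NR, was large in each, and was hyperexpanded in no mouse.

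Within the same mouse, a few members were close in sequence to a hyperexpanded clone, and how they arose was not tested. In all, 8 of 314 members (2.55%) encoded the CDR3 residues of a hyperexpanded rearrangement of their own mouse through another nucleotide sequence, against 4.31% of all productive rearrangements. Members that differed from such a CDR3 by 1 residue numbered 19 (6.05%; 2.33% of all), and 6 (1.91%; 0.246% of all) differed from a hyperexpanded rearrangement of the mouse by 1 base, against 1 of 6514 smaller ones. The hyperexpanded class stood higher than the members in both, at 15.2% for 1 residue and 12.7% for 1 base. Members with the V and J pair of a hyperexpanded rearrangement of their mouse numbered 58 (18.5%; 11.5% of all). Toward other mice, 22 members (7.01%; 2.37% of all) encoded a hyperexpanded CDR3 with another sequence, and 54 (17.2%; 5.66% of all) lay 1 residue from a hyperexpanded CDR3 of any mouse. Within the hyperexpanded class these shares were 20.3% and 44.3%. No relation of identity, shared CDR3, 1 residue or 1 base tied 228 members (72.6%) to a hyperexpanded rearrangement. The share without a relation was not counted over all productive rearrangements. Of these relations, only the CDR3 shared within a mouse was rarer among members than over all. The 72.6% thus does not set members apart as unrelated.

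The 2 most abundant members with the CDR3 residues of a hyperexpanded rearrangement of the same mouse were both in 1R. They are shown because single bases set them apart from the hyperexpanded sequences. Capitals mark the bases given to neither V nor J.
1R TCRBV16-01, large, 120 templates: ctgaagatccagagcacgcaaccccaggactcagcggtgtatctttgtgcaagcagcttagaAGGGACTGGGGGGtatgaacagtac
1R TCRBV16-01, hyperexpanded, 1545 templates: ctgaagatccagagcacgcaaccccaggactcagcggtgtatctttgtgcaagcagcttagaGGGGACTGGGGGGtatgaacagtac
1R TCRBV16-01, hyperexpanded, 1653 templates: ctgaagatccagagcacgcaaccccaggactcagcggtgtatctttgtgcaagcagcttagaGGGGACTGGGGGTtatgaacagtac
1R TCRBV13-03, large, 117 templates: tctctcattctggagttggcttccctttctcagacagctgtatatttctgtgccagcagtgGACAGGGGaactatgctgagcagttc
1R TCRBV13-03, hyperexpanded, 283 templates: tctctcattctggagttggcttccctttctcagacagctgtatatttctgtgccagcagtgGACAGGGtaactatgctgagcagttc
Positions are counted from 1 at the 5′ end of the 87 bases. Against the hyperexpanded sequence with 1545 templates (11.2% of 1R), the large TCRBV16-01 sequence (0.869%) carried G63A, and against that with 1653 templates (11.97%) it carried G63A and T75G. The large TCRBV13-03 sequence (0.847%) carried T69G against the hyperexpanded TCRBV13-03 sequence (2.05%). All these changes leave the CDR3 residues as they were. The large TCRBV16-01 sequence of 1R was at the same time hyperexpanded in 4 other mice, making up 1.52% of 3R, 23.1% of 5NR, 42.5% of 6NR and 3.65% of 7NR, whereas the large TCRBV13-03 sequence was found only in 1R.

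The V gene profile of the large class differed from that of the smaller rearrangements at 6 of the 24 V genes tested (25%), 3 higher and 3 lower (edgeR quasi-likelihood test on distinct rearrangements per mouse, adjusted p below 0.05). Higher were TCRBV13-03, a Vβ8 gene, TCRBV12-01, a Vβ5 gene, and TCRBV26-01, known as Vβ3. Lower were TCRBV13-02, TCRBV12-02 and TCRBV05-01. The raised and the lowered genes thus included members of the same subfamilies, TCRBV13 and TCRBV12.

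TCRBV13-03 was the most used V gene, with 46 members and 37 distinct CDR3s. The R mice had it in 15.6%, 15.8% and 18.2% of their members (1R to 3R) and the NR mice in 20.6%, 15.8%, 12.3% and 5.13% (4NR to 7NR), against 5.13% to 8.88% of the smaller rearrangements. It was higher among the members in 6 of 7 mice, with 7NR the exception. The mean was 14.8% ± 4.95 against 6.99% ± 1.11 (n = 7), a log2 difference of 1.07 ± 0.23 (SE; edgeR adjusted p = 0.000464). Of its members, 15 joined TCRBJ02-01.

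TCRBV12-01 had 39 members, of which 22 joined TCRBJ02-07. The R mice had it in 13.3%, 13.2% and 14.5% of their members (1R to 3R) and the NR mice in 17.6%, 10.5%, 10.8% and 7.69% (4NR to 7NR), and it was above the smaller rearrangements (5.41% to 8.07%) within every mouse. The log2 difference was 0.93 ± 0.25 (SE; edgeR adjusted p = 0.00399). The call was lost with TMM (log2 0.53, adjusted p = 0.121), with DESeq2 (0.69, adjusted p = 0.0597) and with a lower limit of 0.05% (0.50, adjusted p = 0.0521). TCRBV26-01 had 22 members, and its share was uneven: 2.22%, 13.2% and 3.64% in the R mice (1R to 3R), then 0 of 34 members, 13.2%, 9.23% and 7.69% in the NR mice (4NR to 7NR), against 2.10% to 4.30% of the smaller ones. It was higher in 4 of 7 mice (log2 1.04 ± 0.33, edgeR adjusted p = 0.0152). Without the members hyperexpanded in another mouse, which took out 7 of its 22, the adjusted p was 0.222, and without 2R, 5NR or 6NR it was 0.0845, 0.110 or 0.0751. It was 0.160 with TMM, 0.118 with DESeq2 and 0.138 with a lower limit of 0.2%.

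TCRBV13-02 was the reverse case: the leading V gene of the smaller rearrangements at 10.3% ± 0.564, it had only 14 members, 4.36% ± 2.05. The R mice had it in 2.22%, 5.26% and 3.64% of their members (1R to 3R) and the NR mice in 2.94%, 2.63%, 6.15% and 7.69% (4NR to 7NR), below the lowest share among the smaller ones (9.68%) in every mouse (log2 -1.21 ± 0.31, edgeR adjusted p = 0.00399). TCRBV05-01 and TCRBV12-02 had 5 members each, with log2 differences of -1.60 ± 0.49 for both and edgeR adjusted p = 0.0131. Without 3R the log2 difference was -1.36 for TCRBV05-01 (adjusted p = 0.0649) and -1.23 for TCRBV12-02 (adjusted p = 0.107). TCRBV05-01 was also lost with a lower limit of 0.05% (log2 -0.61, adjusted p = 0.115).

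With the 47 members left out that were hyperexpanded in another mouse, 3 V genes were called, TCRBV13-03, TCRBV12-01 and TCRBV13-02, in the same directions. Rearrangements seen as a single template made up 4011 of the 6514 smaller ones. When they were left out, 2 genes stayed past the threshold, TCRBV13-03 and TCRBV05-01.

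**Figure D3:**
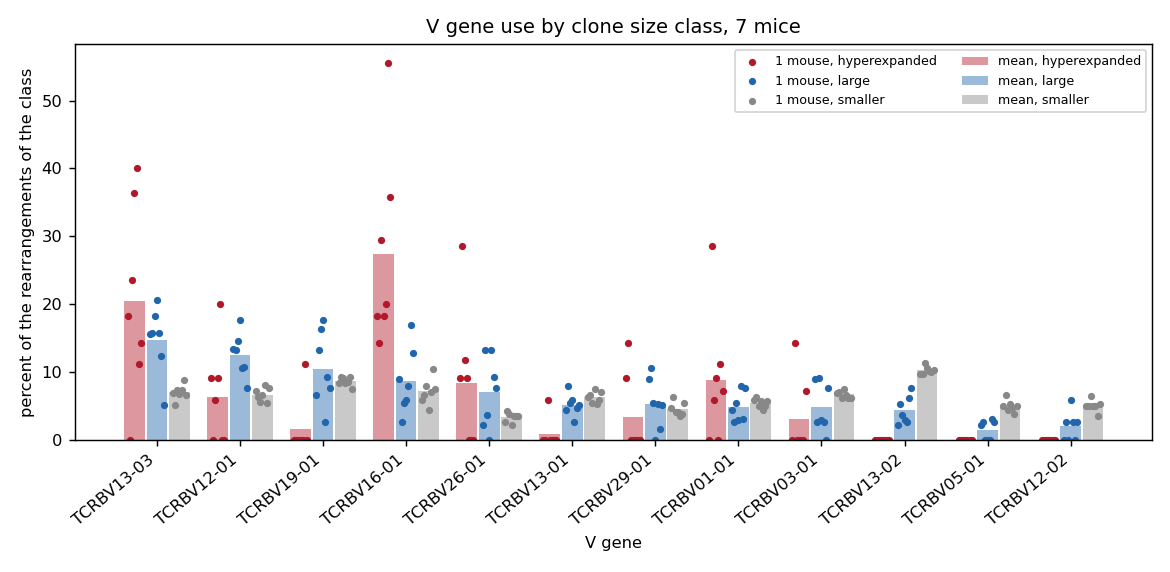
Percent of the distinct rearrangements of each clone size class that used a V gene, for the 10 V genes with most members and for TCRBV05-01 and TCRBV12-02; bars are means of 7 mice and each point is 1 mouse. TCRBV13-03 and TCRBV12-01 stand higher in the large class than in the smaller one, TCRBV13-02 lower, and TCRBV16-01 stands highest in the hyperexpanded class (27.3%, against 8.64% of the large).

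Against the hyperexpanded class, 2 of 24 V genes passed the test (8.33%). TCRBV16-01, known as Vβ11, was used by 29 of 314 large and 22 of 79 hyperexpanded rearrangements. The R mice had it in 8.89%, 2.63% and 5.45% of their members (1R to 3R) and the NR mice in 5.88%, 7.89%, 16.9% and 12.8% (4NR to 7NR), and in each mouse this was below its share of the hyperexpanded class, which ran from 14.3% to 55.6% (log2 -1.67 ± 0.40, edgeR adjusted p = 0.00241). The call was lost when the classes were scaled by TMM (log2 -0.73, adjusted p = 0.185) or with DESeq2 (log2 -0.60, adjusted p = 0.444). Among the 22 hyperexpanded ones, every mouse contributed the TCRBV16-01 CDR3 described above. TCRBV19-01, known as Vβ6, had 33 members and 1 hyperexpanded rearrangement of 79, a ratio of shares of 8.30 with a 95% counting interval of 1.39 to 338 (edgeR adjusted p = 0.0354). Its adjusted p was 0.0597 without 1R, 0.0790 without 2R, 0.136 without 3R, 0.107 without 4NR and 0.0823 without 7NR. None of its 33 members was hyperexpanded in another mouse.

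TCRBV13-02 had 14 members and 0 of 79 hyperexpanded rearrangements, which allows a share of up to 3.80%, and its adjusted p against the hyperexpanded class was 0.0961. With TMM and with DESeq2, TCRBV12-01, TCRBV13-01 and TCRBV13-02 were called higher in the large class, beside TCRBV19-01, and TCRBV13-02 was also called with a lower limit of 0.05%. Under the scaling used here, the other V genes with most members passed neither test of the class. TCRBV13-01 and TCRBV29-01, known as Vβ7, had 16 members each, and TCRBV01-01 and TCRBV03-01 had 15 each. TCRBV30-01 had 0 members and 10 smaller rearrangements.

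J use was dominated by TCRBJ02-07, with 118 of 314 members. The R mice had it in 40%, 26.3% and 30.9% of their members, listed from 1R to 3R, and the NR mice in 38.2%, 26.3%, 52.3% and 41.0%, listed from 4NR to 7NR. These shares did not overlap with those among the smaller rearrangements, 16.99% to 24.97%. TCRBJ02-07 was called higher and TCRBJ02-04 and TCRBJ01-01 lower, 3 of 12 J genes tested (25%). The log2 difference was 0.76 ± 0.16 for TCRBJ02-07 (edgeR adjusted p = 9.95e-05), -1.82 ± 0.41 for TCRBJ02-04 (8 members, adjusted p = 0.000109) and -1.07 ± 0.35 for TCRBJ01-01 (14 members, adjusted p = 0.01003; 0.0754 without 2R, 0.0910 with DESeq2 and 0.120 with a lower limit of 0.2%).

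All 3 of these J differences lay between single-template rearrangements and the rest. TCRBJ02-07 made up 11.2% ± 2.99 of single-template rearrangements, 38.7% ± 5.13 of smaller ones with at least 2 templates, 36.4% ± 9.35 of the large and 48.4% ± 16.2 of the hyperexpanded (n = 7 mice). TCRBJ02-04 fell from 12.5% ± 1.51 to 2.77% ± 1.21, and then stood at 2.60% ± 1.65 of the large and 0.840% ± 2.22 of the hyperexpanded. TCRBJ01-01 went from 13.1% ± 1.14 to 3.22% ± 1.13, with 4.30% ± 3.45 of the large. With single-template rearrangements left out, the log2 differences were -0.10, -0.13 and 0.52, and none of the 3 passed (adjusted p = 0.654, 0.877 and 0.448).

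**Figure D4:**
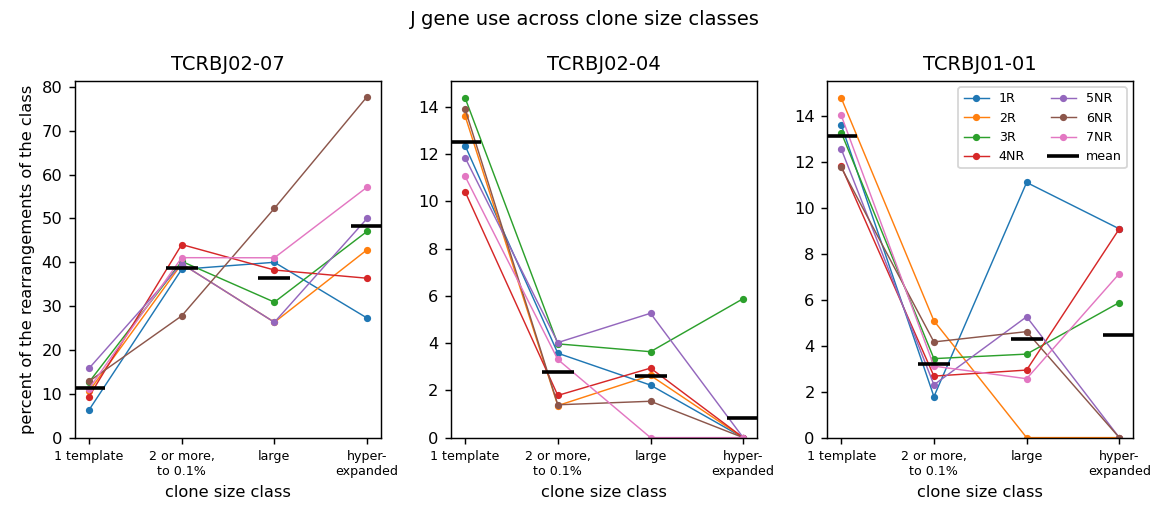
Percent of distinct rearrangements that used TCRBJ02-07, TCRBJ02-04 or TCRBJ01-01, over 4 clone size classes from a single template to hyperexpanded; each line is 1 mouse and the black dash is the mean (each panel has its own axis from 0). The step in the means of all 3 genes lies between 1 template and 2 or more, with TCRBJ02-07 in 6NR climbing further to 52.3% of the large, and the large class is close to the smaller rearrangements of 2 or more templates (36.4% against 38.7% for TCRBJ02-07).

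After TCRBJ02-07 the members used TCRBJ02-01 (47), TCRBJ02-05 (31), TCRBJ01-04 (22) and TCRBJ02-02 (18) most, and TCRBJ01-05 had 11. Against the hyperexpanded class, 0 of 12 J genes (0%) passed the edgeR test, 0 at an unadjusted p below 0.05 and 0 with DESeq2. The 3 most frequent pairings were TCRBV12-01 with TCRBJ02-07 (22 members, in 7 mice), TCRBV16-01 with TCRBJ02-07 (18, in 6 mice) and TCRBV19-01 with TCRBJ02-07 (16, in 6 mice). Genes of the J2 cluster, which lies downstream of the second D segment, made up 75.0% ± 6.49 of the members with a named J and 69.0% ± 1.76 of the smaller rearrangements (two-sided exact sign-flip test over 7 mice, p = 0.0781, adjusted p = 0.203).

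A D gene was named for 251 members and none was named for 63. TCRBD01-01 was named in 145 and TCRBD02-01 in 106, so D1 made up 57.5% ± 10.3 of named D segments in the large class, 52.7% ± 1.62 in the smaller and 60.8% ± 21.7 in the hyperexpanded class. Neither difference passed the exact sign-flip test (p = 0.328 and 0.750, adjusted p = 0.427 and 0.780). Since D segments are short and trimmed on both sides, the name rests on few bases.

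The CDR3 of a member was most often 14 residues long, as in 130 of 314 (41.4%), with a range of 10 to 18. The mean over mice was 13.9 ± 0.244 residues in the large, 14.0 ± 0.0662 in the smaller and 14.3 ± 0.221 in the hyperexpanded class. Members were shorter than the hyperexpanded rearrangements in 6 of 7 mice, by 0.397 ± 0.418 residues (SD over mice; exact sign-flip p = 0.0469, adjusted p = 0.203). A length of 15 residues was found in 18.8% of members, 23.6% of the smaller and 34.2% of the hyperexpanded rearrangements, all mice pooled. CDR3s of 11 or fewer residues were seen in 19 members (6.05%), 4.39% of the smaller rearrangements and 0 of 79 hyperexpanded ones, which allows a share of up to 3.80%.

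N insertions were few in all classes. Members carried 2.98 ± 0.424 N bases over both junctions, the smaller rearrangements 3.43 ± 0.0644 and the hyperexpanded 2.96 ± 0.422 (n = 7 mice). Members had fewer than the smaller rearrangements in 6 of 7 mice (difference -0.455 ± 0.438, exact sign-flip p = 0.0312, adjusted p = 0.203). The difference was spread over both sides of D: N1 was 1.58 against 1.77 bases and N2 1.40 against 1.66. No N base at all was found in 44 members, 14.5% ± 5.74 over mice, against 9.79% ± 1.78 of the smaller and 7.93% ± 4.38 of the hyperexpanded (adjusted p = 0.237 and 0.203, exact sign-flip test). V segments had lost 2.32 ± 0.317 bases in members, 2.66 ± 0.121 in the smaller and 1.94 ± 0.521 in the hyperexpanded class.

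None of the 26 comparisons of 13 junction measures with the smaller and hyperexpanded classes passed at an adjusted p below 0.05. Unadjusted, 4 of 13 passed against the smaller and 2 of 13 against the hyperexpanded class, with 0.0156 as the smallest p that 7 mice allow. Even at that p, a comparison could not pass the adjustment over 26 on its own, but only together with several others. The smallest adjusted p was 0.203.

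**Figure D5:**
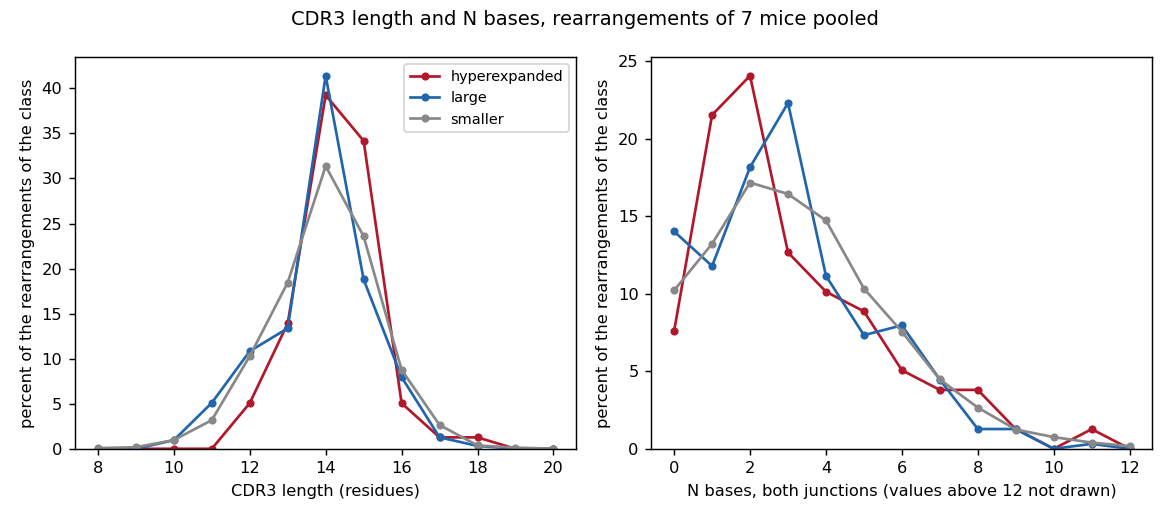
Distribution of CDR3 length in residues (left) and of the sum of N1 and N2 bases (right) in the 3 clone size classes, as percent of the rearrangements of the class, 7 mice pooled. The large class peaks at 14 residues (41.4%) and at 3 N bases (22.3%), and 14.0% of it has no N base.

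N bases are given next by whether a member was found in another mouse, pooled over mice and with no test. Of the 104 members found in another mouse but hyperexpanded in none, 22 (21.2%) had no N base, against 16 of 163 members found in 1 mouse (9.82%) and 6 of 47 hyperexpanded in another mouse (12.8%). The order of the first and the second share was not the same in all mice: it was 0% against 20.6% in 1R and 20% against 21.1% in 4NR. The mean was 2.81, 3.23 and 2.64 N bases. TCRBJ02-07 was used by 48.5% of the members found in 1 mouse, 19.2% of those found elsewhere but hyperexpanded nowhere, and 40.4% of those hyperexpanded in another mouse.

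The residue motifs GTG and GQG are ones that D1 encodes in different reading frames. GTG also occurred with D2 as the named D, as in the TCRBV16-01 sequences shown above. GTG was in the CDR3 of 42 members, 13.2% ± 4.82 over mice, against 8.90% ± 2.26 of the smaller and 30.5% ± 13.4 of the hyperexpanded rearrangements. It was less frequent in the large than in the hyperexpanded class in 6 of 7 mice (exact sign-flip p = 0.0312, adjusted p = 0.203). The 15-residue TCRBV16-01 CDR3 described above, which was hyperexpanded in every mouse, contains GTG. The differences from the hyperexpanded class in GTG, in TCRBV16-01 and in CDR3 length are thus not independent of each other. Of the 42, 15 used TCRBV12-01 and 9 TCRBV16-01. GQG was in 21 members, 6.52% ± 2.91 against 3.62% ± 0.337 of the smaller rearrangements, and higher in 6 of 7 mice (exact sign-flip p = 0.0312, adjusted p = 0.203). TCRBV26-01 supplied 12 of these 21, among them the sequence of 6NR shown above. DRG or DWG was found in 24 members, 7.75% ± 2.94, against 9.01% ± 1.10 of the smaller rearrangements (adjusted p = 0.503).

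R and NR mice were compared within the large class for V use, J use and the junction. With edgeR, 0 of 12 V genes with enough members passed (0%; 1 at an unadjusted p below 0.05, 0 with DESeq2) and 0 of 10 J genes passed (0%; 0 unadjusted, 0 with DESeq2). The V gene nearest to a difference was TCRBV29-01, at 8.89%, 10.5% and 5.45% of the members of 1R, 2R and 3R, and at 0, 5.26%, 1.54% and 5.13% of those of 4NR to 7NR (log2 1.40 ± 0.60, edgeR adjusted p = 0.378). TCRBV26-01 overlapped between the groups (log2 -0.44 ± 0.67, adjusted p = 0.733), and its value ran from -1.33 (without 2R) to -0.077 (without 1R) when 1 mouse was left out. Of the 13 junction measures, 0 differed (0 unadjusted; smallest adjusted p = 0.929, exact permutation test, in which 3 mice against 4 can give no p below 0.0286). CDR3 length was 14.0 ± 0.337 residues in R and 13.8 ± 0.176 in NR (exact p = 0.429), and N bases were 2.83 ± 0.322 and 3.09 ± 0.502 (exact p = 0.429). With 3 and 4 mice, a difference that was not detected may still exist.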

How the data were processed

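TCRβ junctions were sequenced by a commercial service (immunoSEQ, survey resolution) from equal amounts of CD8 TIL genomic DNA, with a library for each mouse. Template counts were deposited per nucleotide rearrangement as whole numbers, estimated by the service from its reads and not normalized, with V, D and J named by the IMGT scheme. The deposited productive frequency is a fraction of the in-frame templates of the mouse, and the recomputed frequencies differed from it by 0. The aligner version and genome build are not given in the sources used here, so no coordinates are given. All 46 segment names matched RefSeq names (GRCm38.p6). The deposited summary of the libraries was not used.

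In-frame rearrangements were classed by frequency. V and J use was tested on distinct rearrangements per gene, class and mouse (edgeR 4.0.16 quasi-likelihood, R 4.3.3; genes with at least 10 rearrangements, library size the rearrangements of the class, common dispersion, no TMM, mouse as block for classes). The 13 junction measures were averaged per mouse and compared by exact sign-flip tests over 7 mice (128 flips) or exact permutation tests over 35 divisions, two-sided, with Benjamini-Hochberg adjustment over 26 and 13 tests. The planned tests of member number and template share are not given, since frequency chose the members. Scripts were tested on simulated data. The same cells make up each mouse's 3 classes. The sign-flip and permutation p-values measure the spread between mice. The edgeR p-values rest on counts of distinct rearrangements, and a sequence shared between mice counts in each. Exact sign-flip tests of the shares over 7 mice gave unadjusted p = 0.125 for TCRBV26-01 against the smaller class. The other genes called against that class had 0.0312 (TCRBV13-03, TCRBV12-02, TCRBJ01-01) or 0.0156 (the rest). Against the hyperexpanded class, TCRBV16-01 had 0.0156 and TCRBV19-01 0.0312. Intervals are 95% Wilson or exact, and a count of 0 is given the limit of 3 counts.

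The text names the 8 V and 5 J genes with most members (9 V genes, as 2 tied), any gene called, and TCRBV26-01, TCRBV30-01, TCRBJ01-04 and TCRBJ01-05 whatever their rank. Members, genes and tests were chosen with earlier results of these data known. Alternatives were TMM, DESeq2 1.42.0, other size limits and filters, and leaving out each mouse.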

Additional observations from a re-analysis of the deposited data

Results flagged for a closer look

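The number of large rearrangements in 6NR, 65, stood far above the 34 to 39 of the other NR mice, and so did their share of its productive rearrangements, 19.5% against 2.77% to 3.99%. 6NR also had the fewest productive templates, 2332. These were 2 of 29 quantities examined for a distant NR mouse, and chance alone marks about 1 in 20. The part of the depth in the result was not tested.

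Non-productive rearrangements, which no comparison above uses, were found in the same range of template frequency: 115 in the 7 mice with 3003 templates, of which 108 were out of frame and 7 held a stop codon. The R mice had 14, 14 and 22 of them (1R to 3R) and the NR mice 9, 15, 24 and 17 (4NR to 7NR).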

How the results depend on the processing

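Limits on these results include the lower frequency limit, the single-template rearrangements in the class of comparison, members hyperexpanded in another mouse, and the scaling. Against the smaller rearrangements, V calls numbered 3 without members hyperexpanded in another mouse, 2 when the smaller class needed 2 templates, 5 with a lower limit of 0.05% or 0.2%, and 4 to 7 when 1 mouse was left out. TMM called 6 V genes (1 higher, 5 lower) and DESeq2 4 (1 higher, 3 lower), the median of all V genes moving by -0.39 and -0.25 on the log2 scale. J calls numbered 2 with DESeq2, 8 with a lower limit of 0.05%, 1 with 0.2%, 1 (TCRBJ02-05) when the smaller class needed 2 templates, and 2 to 4 without 1 mouse. Against the hyperexpanded class, V calls numbered 1 with a lower limit of 0.2%, 1 for members of at least 10 templates, 1 to 2 without 1 mouse, and 4 (all higher; TCRBV12-01, TCRBV13-01, TCRBV13-02 and TCRBV19-01) with TMM and with DESeq2, which moved the median V gene by 0.81 and 0.34. R against NR, 1 V gene (TCRBV31-01) was called with a lower limit of 0.05%.

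Directions turned in these cases. With at least 2 templates in the smaller class, TCRBJ01-01 stood at 0.52 and TCRBJ02-07 at -0.10 (log2), and CDR3 length at 0.0948 residues above the smaller class. TCRBJ02-07 against the hyperexpanded class, not called at -0.36, was 0.28 with TMM and 0.49 with DESeq2. TCRBV16-01 against the smaller class, not called at 0.28, was -0.13 without members hyperexpanded elsewhere, -0.11 with TMM and -0.0023 with DESeq2. R minus NR, the N bases differed by 0.0123 with a lower limit of 0.2%. The number of members, R minus NR, was -37.1 and their template share -0.493 percentage points with a lower limit of 0.05%. The number was -0.0833 with all templates as the denominator and -2.50 to 9 without 1 mouse, and the share was 0.783 to 4.08. The causes were not tested. Of the other comparisons of a result with an alternative, 540 stayed close to the main setting. For a single gene or measure this means the same direction and, where tested, the same call. For a count of calls it means a similar count, not always of the same genes. With TMM, 4 of the 6 V genes called against the smaller class were also called in the main setting. In 15 comparisons a count or value moved further, and 33 kept the direction of a named gene but lost its call.

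R and NR labels share replicate numbers, which mark no shared animal. The deviations of same-numbered mice correlated at -0.276, 0.266 and -0.249 for V use and at -0.337, 0.617 and -0.453 for J use. Those of R and NR mice with different numbers ran from -0.324 to 0.590 for V use and from -0.487 to 0.695 for J use. With so few pairs and so wide a range, these values cannot show whether the numbers pair the mice. With the replicate number as a block, 0 V and 0 J genes were called, the number of members differed by 0.333 and their template share by 1.82 percentage points. For junction measures the paired differences have no test, and CDR3 length differed by 0.178 residues.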
